A study of Mus musculus with 12 samples.

Results

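The 40 genes described here are interferon-stimulated genes, whose RNA is known to rise when a cell senses interferon. They were chosen by symbol. The rule uses no measured value, but the list was drawn up with earlier results of these data known. All 40 were found among the 47643 gene IDs of each deposited count file. All 40 also passed the filter on low counts, which left 14034 genes for testing. The question was how these genes changed when bone-marrow monocytes became dendritic cells in culture, and whether loss of Nr4a3, a nuclear receptor gene, altered that.

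The cells came from the bone marrow of mice on a C57BL/6 background, and each of the 6 groups holds 2 poly(A) RNA-seq libraries. WT monocytes and KO monocytes were sequenced as sorted, labelled undifferentiated, and KO stands for the label Nr4a3 KO. WT day 1 and KO day 1 cells were cultured for 1 day, and WT day 2 and KO day 2 cells for 2 days, with GM-CSF and IL-4, the pair of cytokines commonly used to turn monocytes into dendritic cells. No label names an interferon, a virus or a microbial product among the treatments. The age and sex of the mice, the number of mice behind a library, and the construction of the Nr4a3 allele are not given in the sources used here. By the dates in the deposited names, replicates 1 and 2 were separate experiments. Monocytes and day 1 shared a pair of experiments and day 2 came from another pair, so the effect of day 2 and that of its experiments cannot be told apart.

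Gene reads per library ran from 5905266 in KO day 2 replicate 1 to 18447405 in KO day 1 replicate 2. A level is given below in CPM, the reads of a gene per 1000000 gene reads of its library (with TMM factors). A count of 0 allows up to 3 reads, which is 0.164 CPM in the deepest library and 0.500 CPM in the shallowest, for counting error only. Nr4a3 RNA stood at 16.5 and 10.4 CPM after 1 day of WT culture and at 1287 and 1358 CPM after 2 days, against 39.0 and 19.3 CPM for KO cells at day 2. At day 1 the library labelled KO replicate 1 held 76 reads of Nr4a3 (6.58 CPM) and KO replicate 2 held 0. The gene's level in KO replicate 1 thus lay above KO replicate 2 and below both WT libraries. Whether that label is right, or whether cells were mixed, was not tested. The library is called KO day 1 replicate 1 by its label, and each KO day 1 value, each comparison of KO with WT at day 1 and each interaction with day 1 depends on it. The 5 monocyte markers summed to between 7477 and 9682 CPM in the sorted libraries. The 5 markers of monocyte-derived dendritic cells summed to between 164 and 206 CPM there, between 6059.8 and 9210.4 CPM at day 1, and between 25891 and 29827 CPM at day 2. These sums thus followed the labelled stages, while single markers could differ. Of the monocyte markers, Ccr2 was lower in WT day 2 than in WT day 1 (log2 difference -2.53, edgeR adjusted p = 0.0204). Cd14 was higher there (log2 difference 3.20, edgeR adjusted p = 0.0253). A pair of libraries stood apart, KO day 1 replicate 1 and WT monocytes replicate 2. In the latter, the 6 neutrophil markers summed to 2107 CPM against 561 to 1155 CPM in the other monocyte libraries, and the 6 nonclassical monocyte markers to 897 CPM against 1297 to 1931 CPM. In such bulk RNA, fewer cells of a type and less RNA per cell cannot be told apart.

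Type I interferon binds the receptor IFNAR, whose kinases JAK1 and TYK2 phosphorylate STAT2. The factor ISGF3, which holds STAT2 and IRF9, binds the interferon-stimulated response element (ISRE) in promoters. Interferon gamma acts through gamma-activated sites, and monocytes and dendritic cells both respond to these cytokines and make some of them.

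An ISRE core was searched on both strands of 300-base promoters, which reach from 250 bases before to 50 bases after each start (RefSeq, GRCm38.p6). The core was searched as GAAA, any 2 bases and GAAA again. Of the 40 genes, 30 had an entry in the promoter table, and 20 of these 30 held a match, against 3.99% of all genes in the table and 3.44% of all its promoters. The letters of a gamma-activated site, TTCNNNGAA, occurred in 7 of the 30, against 9.55% of all genes. Matches can overlap each other, as in Isg15, and a match is a description of letters and not of a bound site. The 10 genes with no entry were Iigp1, Rtp4, Ifi204, Oas2, Mx2, Parp14, Usp18, Dhx58, Mx1 and Zbp1.

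The promoters of 7 genes are shown because their levels are given below: Ifit3 and Oas3 were called after 1 day of WT culture, Ifit1 and Isg15 were not, Rsad2 and Cmpk2 are neighbours, and Gbp2 had another time course. Capitals mark ISRE matches, and positions count bases from the start, with those before it negative. Ifit1 lies at chr19:34640639-34640938 on the plus strand with matches at -104 and -85, and Ifit3 at chr19:34583279-34583578 on the plus strand with matches at -156 and -122. Isg15 lies at chr4:156200769-156201068 on the minus strand, with matches at -78, -72 and -66. Oas3 lies at chr5:120777610-120777909 on the minus strand with a match at -75. Rsad2 lies at chr12:26456403-26456702 on the minus strand with a match at -120. Gbp2 lies at chr3:142620413-142620712 on the plus strand with a match at -59. Cmpk2 lies at chr12:26468965-26469264 on the plus strand and held no match in this window.
Ifit1: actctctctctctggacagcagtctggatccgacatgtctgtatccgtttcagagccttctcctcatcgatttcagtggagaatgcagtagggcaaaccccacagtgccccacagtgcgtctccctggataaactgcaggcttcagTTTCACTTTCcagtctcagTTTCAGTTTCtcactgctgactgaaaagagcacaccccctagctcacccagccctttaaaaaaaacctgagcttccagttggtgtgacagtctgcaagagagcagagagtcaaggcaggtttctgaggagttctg
Ifit3: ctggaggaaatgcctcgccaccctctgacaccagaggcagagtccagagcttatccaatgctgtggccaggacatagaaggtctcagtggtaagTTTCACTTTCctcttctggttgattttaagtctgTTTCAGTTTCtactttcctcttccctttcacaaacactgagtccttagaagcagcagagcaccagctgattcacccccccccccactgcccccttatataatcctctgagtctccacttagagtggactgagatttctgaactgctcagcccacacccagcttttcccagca
Isg15: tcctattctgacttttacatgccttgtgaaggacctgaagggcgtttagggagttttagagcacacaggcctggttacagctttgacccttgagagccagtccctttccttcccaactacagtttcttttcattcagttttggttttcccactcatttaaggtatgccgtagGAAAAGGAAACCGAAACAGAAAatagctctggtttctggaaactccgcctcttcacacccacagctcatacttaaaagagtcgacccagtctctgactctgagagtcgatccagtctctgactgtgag
Oas3: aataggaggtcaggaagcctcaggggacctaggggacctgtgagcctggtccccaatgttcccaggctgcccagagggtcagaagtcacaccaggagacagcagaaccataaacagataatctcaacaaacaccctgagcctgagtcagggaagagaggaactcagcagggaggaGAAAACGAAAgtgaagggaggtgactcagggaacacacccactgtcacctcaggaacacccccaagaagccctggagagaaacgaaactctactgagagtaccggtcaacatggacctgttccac
Rsad2: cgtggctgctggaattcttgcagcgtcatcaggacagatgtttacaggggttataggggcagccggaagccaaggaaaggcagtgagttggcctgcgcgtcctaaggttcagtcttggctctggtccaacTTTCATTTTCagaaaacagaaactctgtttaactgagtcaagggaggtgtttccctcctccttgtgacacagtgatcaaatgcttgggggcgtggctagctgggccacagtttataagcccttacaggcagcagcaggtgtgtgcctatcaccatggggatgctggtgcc
Gbp2: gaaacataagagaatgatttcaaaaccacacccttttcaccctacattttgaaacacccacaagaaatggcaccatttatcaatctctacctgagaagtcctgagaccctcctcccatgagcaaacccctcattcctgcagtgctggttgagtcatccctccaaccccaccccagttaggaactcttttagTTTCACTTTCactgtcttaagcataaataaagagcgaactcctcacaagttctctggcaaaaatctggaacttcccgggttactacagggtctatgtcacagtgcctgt
Cmpk2: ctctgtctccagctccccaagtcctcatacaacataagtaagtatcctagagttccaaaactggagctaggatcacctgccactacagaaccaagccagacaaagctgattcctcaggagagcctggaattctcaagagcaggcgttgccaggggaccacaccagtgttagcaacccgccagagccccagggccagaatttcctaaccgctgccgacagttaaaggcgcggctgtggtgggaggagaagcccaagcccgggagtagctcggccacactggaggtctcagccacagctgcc

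Several of the 40 genes are neighbours in the genome (GENCODE M21, GRCm38), so they share a region. Neighbours did not always change alike, as the levels of Gbp2 and Gbp7 below show. The 4 Ifit genes lie side by side on chromosome 19 between 34550694 (Ifit2) and 34650009 (Ifit1). The 3 Gbp genes lie on chromosome 3 between 142530342 (Gbp7) and 142638008 (Gbp2). Slfn5, Slfn8 and Slfn1 lie on chromosome 11 between 82951349 and 83122670. Oas2, Oas3 and Oas1a lie on chromosome 5 between 120730333 and 120907521. Mx2 is annotated as a polymorphic pseudogene and each of the others as protein coding. Ifit3 and Ifit3b, Ifi203 and Ifi204, and Slfn8, Oas1a, Trim30a and the Gbp genes have near-identical relatives. Reads that map to several places were not counted, so the levels of these genes are uncertain.

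The 3 highest summed levels of these 40 genes were in sorted monocytes. The sum was 3692 and 4667 CPM in WT monocytes and 4035 and 3045 CPM in KO monocytes. After 1 day of culture it was 754 and 1342 CPM for WT cells. KO day 1 replicate 1 held 3502 CPM and KO day 1 replicate 2 held 804.2 CPM. At day 2 WT cells held 2226 and 1506 CPM, and KO cells held 3315 and 1346 CPM. The 4 monocyte libraries, KO day 1 replicate 1 and KO day 2 replicate 1 were thus high, the other 3 day 1 libraries were low, and day 2 was split by replicate. As a share of all gene reads the genes took 0.298% to 0.414% in monocytes, 0.0761% and 0.135% after 1 day in WT, and 0.377% and 0.0797% after 1 day in KO. After 2 days the shares were 0.221% and 0.153% for WT cells, against 0.337% and 0.136% for KO cells.

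**Figure D1:**
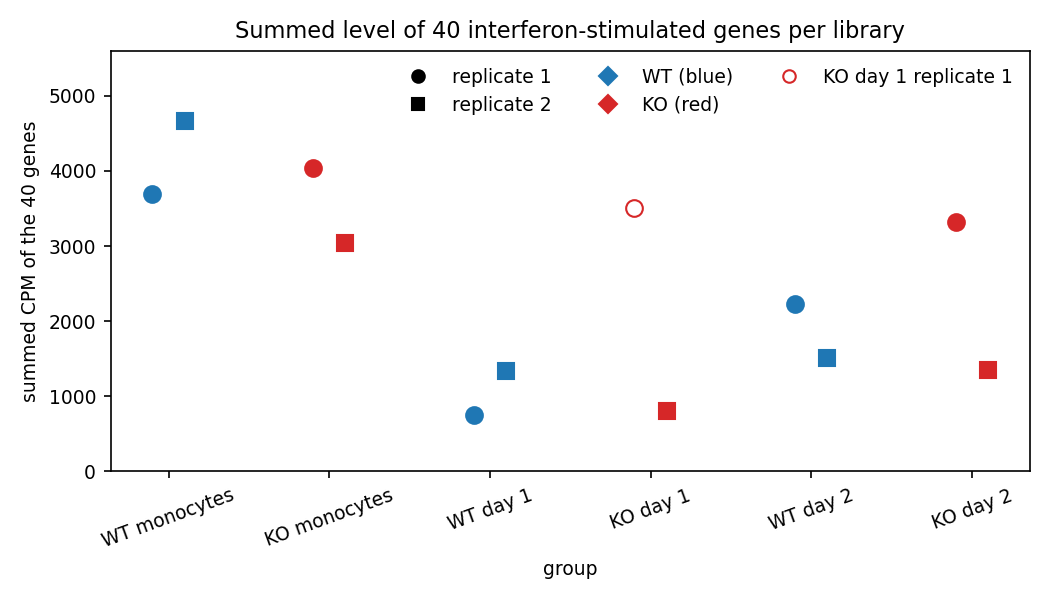
Summed CPM of the 40 genes in each of the 12 libraries (vertical axis, from 0), by group, with circles for replicate 1, squares for replicate 2, blue for WT and red for KO. The 4 monocyte libraries lie between 3045 and 4667 CPM, and KO day 1 replicate 1 (open circle, 3502 CPM) and KO day 2 replicate 1 (3315 CPM) lie among them while the other 3 day 1 libraries lie between 754 and 1342 CPM.

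Per kilobase of exon, the order of the genes also differed between stages. In WT monocytes the highest means were Slfn1 at 162 CPM per kb, Ifi204 at 122, Bst2 at 86.7 and Oas1a at 79.3 CPM per kb. In WT day 1 they were Bst2 at 69.9 CPM per kb, Ifi35 at 40.5, Usp18 at 30.7 and Mx1 at 25.1 CPM per kb. In WT day 2 they were Bst2 at 64.7 CPM per kb, Gbp2 at 63.9, Stat2 at 45.5 and Trim30a at 33.0 CPM per kb. Bst2, which encodes tetherin, a membrane protein that holds budding virus on the cell, was thus among the highest at each of these stages.

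**Figure D2:**
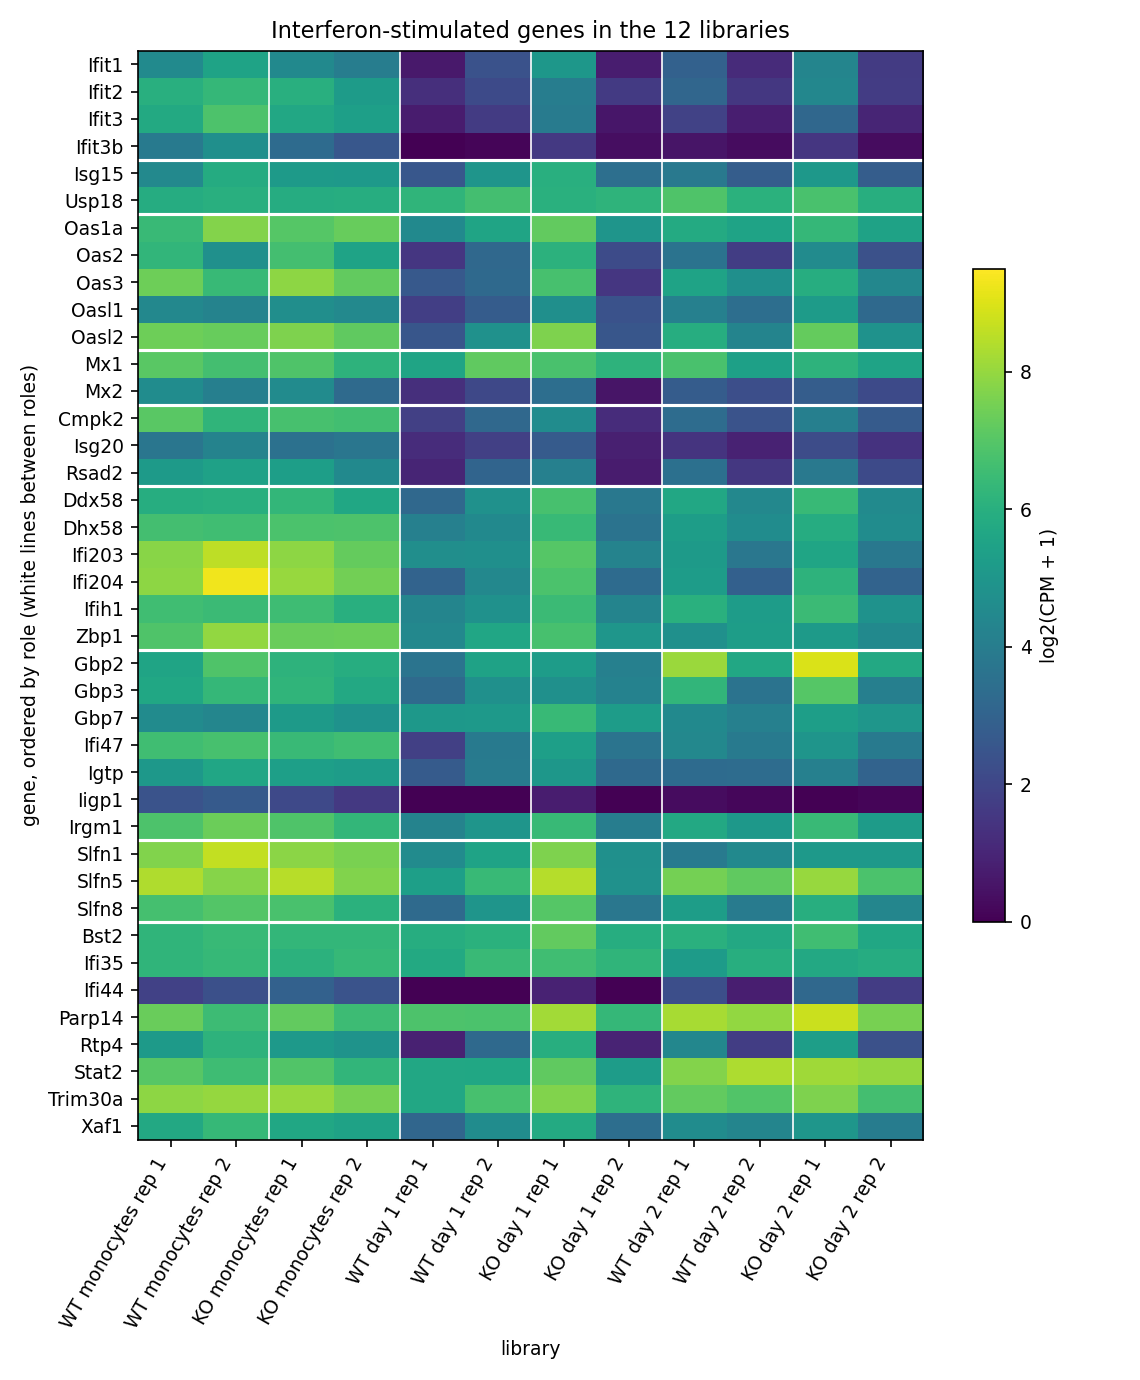
Level of each of the 40 genes (rows, ordered by role) in each of the 12 libraries (columns), as log2(CPM + 1), with yellow high and dark blue low. Most rows are bright in the 4 monocyte libraries and in KO day 1 replicate 1 and dark in the other 3 day 1 libraries, while Usp18, Ifi35 and Bst2 stay of similar brightness.

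After 1 day of culture WT cells carried less of this RNA than sorted WT monocytes. Of the 40 genes, 17 were lower in WT day 1 than in WT monocytes and 0 were higher (edgeR's quasi-likelihood test, adjusted p under 0.05 over all genes tested). Over all genes tested, 10.1% were called lower and 11.4% higher. DESeq2 called 24 of the 40 lower and 0 higher, and 28 had an unadjusted p under 0.05 in edgeR. Here and below, counts by DESeq2 and by unadjusted p have no share of all genes beside them. The same holds for some counts from other edgeR fits. The shares of genes called belong to edgeR's adjusted p. The 40 genes had a median log2 difference of -2.46, against 0.06 over all genes tested, and 38 of the 40 differences were negative. Both WT day 1 libraries lay below both WT monocyte libraries for 34 of the 40 genes, against 24.5% of all genes tested. The 2 genes with both WT day 1 libraries above were Usp18 and Gbp7, against 30.8% of all genes tested.

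Among the IFIT genes, whose proteins bind foreign RNA and block its translation, 3 of 4 were lower. Ifit3 stood at 53.6 and 115 CPM in WT monocytes and 0.661 and 2.12 CPM in WT day 1, a log2 difference of -5.91 ± 1.42 (SE, n = 2 per group, edgeR adjusted p = 0.0148). Ifit2 stood at 62.6 and 79.7 CPM and then 1.40 and 3.43 CPM, a log2 difference of -4.87 ± 1.19 (edgeR adjusted p = 0.016). For both genes the groups were far apart, with the higher of the day 1 levels well below the lower of the monocyte levels. Ifit3b had 424 reads in the WT monocyte libraries and 1 read in the WT day 1 libraries, a ratio of 458 with an exact 95% counting interval of 81.8 to 18149.6 (edgeR adjusted p = 0.00285). Ifit1 stood at 22.1 and 44.4 CPM in WT monocytes and 0.578 and 4.24 CPM in WT day 1, and this log2 difference of -3.78 did not pass (edgeR adjusted p = 0.106).

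Of the 6 genes for sensors of nucleic acids, 4 were lower. Ifi204 and Ifi203 belong to the PYHIN family, some of whose proteins bind DNA. Ifi204 stood at 234 and 634 CPM in WT monocytes and 7.10 and 20.7 CPM in WT day 1, a log2 difference of -4.96 ± 1.40 (edgeR adjusted p = 0.03). Ifi203 stood at 224 and 379.5 CPM and then 24.9 and 25.7 CPM, a log2 difference of -3.58 ± 0.89 (edgeR adjusted p = 0.0176). Zbp1, a sensor of left-handed nucleic acid that can start cell death, stood at 118 and 249 CPM and then 20.8 and 48.9 CPM (log2 difference -2.40 ± 0.61, edgeR adjusted p = 0.0191). Dhx58, which encodes the RNA-binding regulator LGP2, was also lower (log2 difference -2.36 ± 0.74, edgeR adjusted p = 0.044). The genes of the RNA helicases MDA5 and RIG-I did not pass. Ifih1 (MDA5) stood at 94.2 and 87.3 CPM in WT monocytes and 18.9 and 26.8 CPM in WT day 1 (edgeR adjusted p = 0.0625), and Ddx58 (RIG-I) at 59.6 and 63.3 CPM and then 8.26 and 26.7 CPM (edgeR adjusted p = 0.188).

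Among the 7 interferon-inducible GTPases, which guard membranes and attack the vacuoles of intracellular pathogens, 4 were lower, all of the IRG family. Ifi47 stood at 94.3 and 105 CPM in WT monocytes and 2.48 and 13.7 CPM in WT day 1, a log2 difference of -3.62 ± 0.78 (edgeR adjusted p = 0.00919). Irgm1, a regulator of the other IRG proteins, stood at 115 and 163 CPM and then 18.1 and 30.4 CPM (log2 difference -2.52 ± 0.70, edgeR adjusted p = 0.0283). Igtp stood at 32.8 and 48.7 CPM and then 5.70 and 14.5 CPM (log2 difference -2.01 ± 0.64, edgeR adjusted p = 0.0463). Iigp1 had 109 reads in WT monocytes and 0 in WT day 1, which made it at least 39.3-fold lower with the floor of 3 reads set over the group (edgeR adjusted p = 0.0163). The GBP genes did not pass. Gbp2 stood at 45.7 and 116 CPM in WT monocytes and 11.6 and 43.2 CPM in WT day 1 (edgeR adjusted p = 0.308), and Gbp7 at 23.1 and 19.3 CPM and then 32.1 and 33.9 CPM.

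The enzymes that act on nucleotides and RNA included 2 lower genes of 3. Cmpk2, a mitochondrial nucleotide kinase, stood at 132 and 74.0 CPM in WT monocytes and 2.48 and 8.24 CPM in WT day 1, a log2 difference of -4.27 ± 1.10 (edgeR adjusted p = 0.0203). Isg20, an exonuclease, stood at 12.4 and 17.8 CPM and then 1.32 and 2.45 CPM (log2 difference -3.0 ± 0.84, edgeR adjusted p = 0.0286). Rsad2 encodes viperin, which makes a chain-terminating nucleotide. It stood at 34.7 and 41.8 CPM and then 0.991 and 7.34 CPM, with a log2 difference of -3.19 that did not pass (edgeR adjusted p = 0.107).

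Of the 5 OAS genes, most of which encode enzymes whose product switches on RNase L, only Oas3 was lower. It stood at 167 and 82.7 CPM in WT monocytes and 5.29 and 8.49 CPM in WT day 1, a log2 difference of -4.18 ± 1.30 (edgeR adjusted p = 0.0434). Oas1a stood at 85.4 and 214 CPM and then 21.8 and 45.9 CPM (log2 difference -2.14, edgeR adjusted p = 0.052). The other 3, Oas2, Oasl1 and Oasl2, had log2 differences of -3.32, -2.21 and -3.34 with no overlap between the groups, and none of these passed. Of the Schlafen genes, growth regulators of lymphoid and myeloid cells, Slfn1 was lower, from 209 and 394 CPM to 23.2 and 44.5 CPM (log2 difference -3.16 ± 0.77, edgeR adjusted p = 0.0156). Slfn5 and Slfn8 had log2 differences of -2.15 and -2.56 and did not pass.

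In the remaining groups 2 genes were lower. Trim30a, a member of the TRIM family, stood at 233 and 257 CPM in WT monocytes and 50.5 and 105 CPM in WT day 1 (log2 difference -1.65 ± 0.53, edgeR adjusted p = 0.048). Ifi44 had 72 reads in WT monocytes and 0 in WT day 1, at least 25.9-fold lower with the same floor (edgeR adjusted p = 0.0266). The other genes of these groups were not called. Usp18 encodes the protease that removes ISG15 from proteins and dampens signalling at IFNAR, and stood at 57.2 and 62.7 CPM in WT monocytes and 72.5 and 99.1 CPM in WT day 1. Isg15, the ubiquitin-like protein that Usp18 removes, stood at 21.4 and 55.9 CPM and then 5.04 and 30.4 CPM, overlapping groups. Mx1, a gene of the MX family, stood at 135 and 99.9 CPM and then 45.8 and 144 CPM, and Mx2 at 23.7 and 16.1 CPM and then 1.40 and 3.18 CPM (log2 difference -3.11, edgeR adjusted p = 0.0599).

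Of the 17 lower genes, 13 had a promoter entry and 7 of those held the ISRE letters, as did 13 of the 17 other genes with an entry. Ifit3 and Oas3, whose promoters are printed above, were lower and held matches, while Cmpk2 was lower and held none in its window. Ifit1, Isg15, Rsad2 and Gbp2 held matches and were not called.

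**Figure D3:**
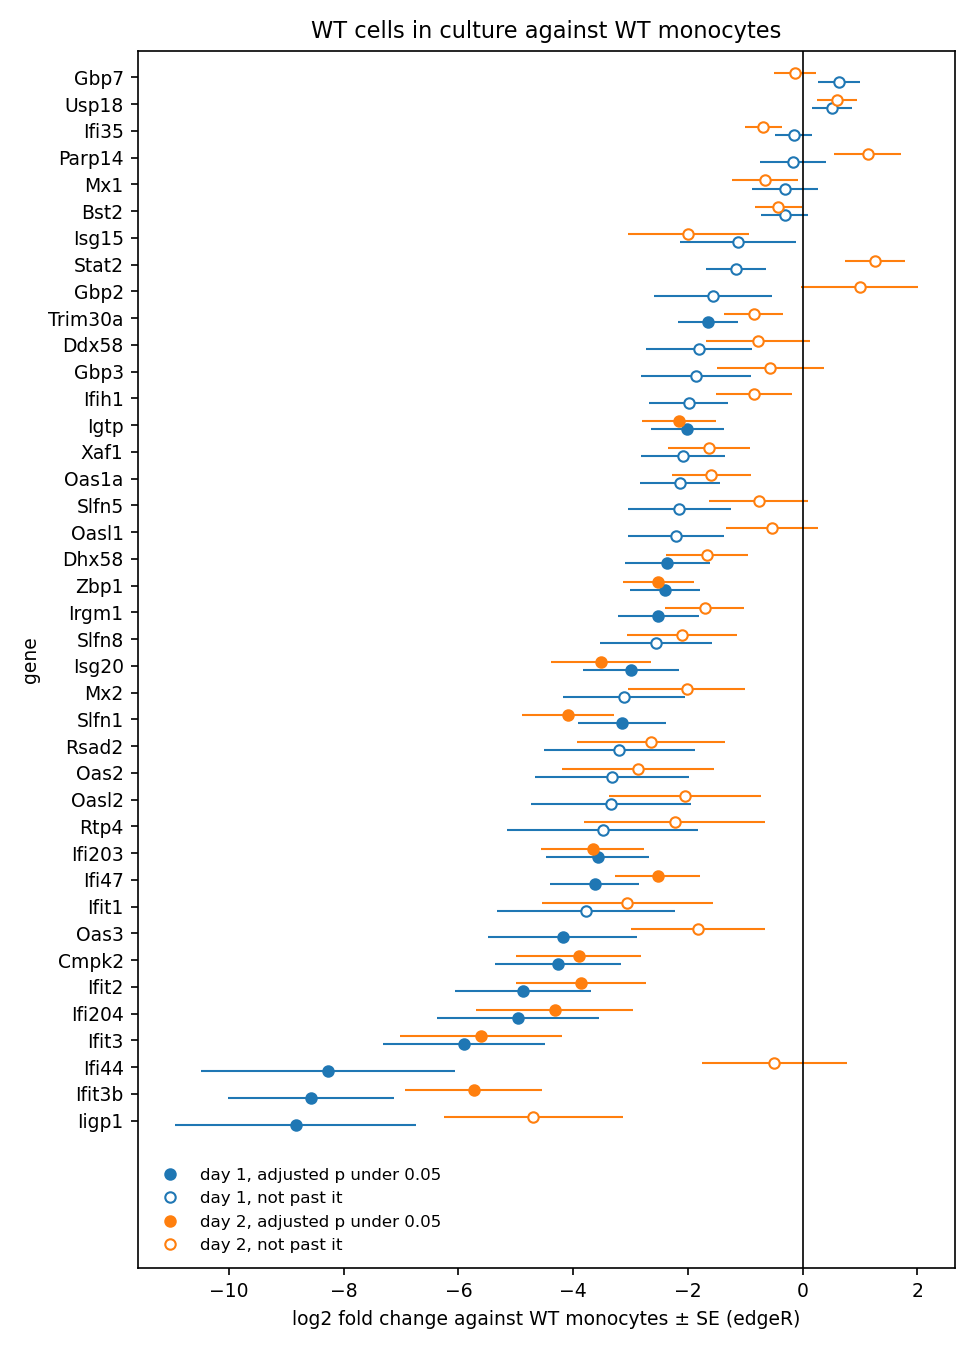
Log2 fold change ± SE (edgeR, horizontal axis) of each of the 40 genes in WT day 1 (blue) and WT day 2 (orange) against WT monocytes, with filled points at an adjusted p under 0.05. There are 17 filled points at day 1 and 11 at day 2, each of them on the lower side, and the values of Ifi44, Iigp1 and Ifit3b rest on 0 to 6 reads in a cultured group and are not exact.

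The count of 17 moved with the libraries used. It was 29 without KO day 1 replicate 1, where 10.2% of all genes were lower, and 29 without KO day 1 replicate 2. Leaving out WT day 1 replicate 1 gave 2 and leaving out its replicate 2 gave 3. The count was 6 without WT monocytes replicate 2, and 17 without both libraries that stood apart. Ifi47 and Ifit3b were called in every fit run. With the experiments as a replicate block 16 genes were lower, and Dhx58 (edgeR adjusted p = 0.055), Igtp (0.0601) and Oas3 (0.0829) were no longer called.

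At day 2 the WT cells were still below monocytes for many of the genes, from cells of other experiments. In WT day 2 against WT monocytes 11 of the 40 genes were lower and 0 higher, against 9.89% lower and 12.7% higher over all genes tested. DESeq2 called 14 lower and 0 higher, and 17 had an unadjusted p under 0.05 in edgeR. Their median log2 difference was -1.91 over the 40 genes and 0.09 over all genes tested. Both WT day 2 libraries lay below both monocyte libraries for 32 of the 40 genes, against 27.2% of all genes tested. Each of the 11 genes was also among the 17 at day 1, and both comparisons share the WT monocyte libraries.

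Slfn1 stood at 13.8 and 21.6 CPM in WT day 2, below its day 1 range, with a log2 difference from monocytes of -4.09 ± 0.80 (edgeR adjusted p = 0.0051), and it was called in every fit run. Ifit3 stood at 2.65 and 0.759 CPM (log2 difference from monocytes -5.61, edgeR adjusted p = 0.017) and Ifit3b differed by -5.74 (edgeR adjusted p = 0.00686). Cmpk2, at 9.32 and 4.43 CPM, and Isg20, at 1.73 and 0.885 CPM, differed from monocytes by -3.90 and -3.52 on the log2 scale (edgeR adjusted p = 0.0266 and 0.0165). Each of these genes thus lay far below monocytes in both WT day 2 libraries. Zbp1 differed by -2.51 (edgeR adjusted p = 0.0151) and Ifi203 by -3.66 (edgeR adjusted p = 0.0153). Ifi204, Ifit2 and Igtp passed at edgeR adjusted p = 0.0438, 0.0331 and 0.0356. Ifi47 passed at 0.033, and at 0.0556 with the replicate block it was no longer called.

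In 3 genes both WT day 2 libraries lay above both monocyte libraries, against 35.6% of all genes tested. They were Usp18, Parp14 and Stat2. Stat2, the transcription factor that carries the activating domain of ISGF3, stood at 129.9 and 93.6 CPM in WT monocytes. It was at 51.0 and 49.2 CPM after 1 day of WT culture and at 215 and 324 CPM after 2 days. Against monocytes its log2 difference at day 2 was 1.27 ± 0.52 (edgeR adjusted p = 0.106). Parp14, an ADP-ribosyltransferase, stood at 162 and 90.6 CPM in monocytes and 306 and 247 CPM in day 2 (edgeR adjusted p = 0.181). With the replicate block both passed, with log2 differences of 1.26 (edgeR adjusted p = 0.0384) and 1.20 (edgeR adjusted p = 0.0387). The count of 11 lower genes ran from 1 on leaving out WT day 2 replicate 2, and 3 on leaving out its replicate 1, to 6 without WT monocytes replicate 2 and 7 without KO monocytes replicate 1. Without KO day 1 replicate 1 there were 18 lower genes (9.45% of all genes) and 1 higher, Stat2 (11.5% of all genes); without KO day 1 replicate 2 there were 19 called genes.

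Between day 1 and day 2 of WT culture Stat2 was the 1 gene called, and it was higher at day 2 by 2.43 ± 0.55 on the log2 scale (edgeR adjusted p = 0.0243). No gene was called lower, 3 further genes had an unadjusted p under 0.05, and DESeq2 called 2 higher and 0 lower. Over all genes tested 4.67% were higher and 3.51% lower. The median log2 difference was 0.71 over the 40 genes and 0.03 over all genes tested. Both day 2 libraries lay above both day 1 libraries for 15 of the 40 genes (31.4% of all genes tested) and below for 2, Gbp7 and Slfn1 (29.5%). With the replicate block 2 genes were higher, Ifi44 and Stat2, against 8.22% of all genes tested. Ifi44 had 0 reads after 1 day and 40 reads after 2 days of WT culture, a level at least 19.6-fold higher, with an edgeR adjusted p of 0.0629 without the block. Stat2 was no longer called when any of the 4 libraries compared was left out.

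Gbp2 followed another course. It encodes a guanylate-binding protein that gathers on vacuoles and bacteria, and stood at 45.7 and 116 CPM in WT monocytes. After 1 day of WT culture it was at 11.6 and 43.2 CPM, and after 2 days at 271 and 50.8 CPM. KO cells held 68.9 and 59.0 CPM of it as monocytes, 36.8 and 16.6 CPM after 1 day and 497 and 52.8 CPM after 2 days. Both replicate 1 libraries of day 2, from the same experiment, were high, and the replicate 2 libraries lay within the range of the monocyte libraries. The log2 difference between WT day 2 and WT day 1 was 2.56 ± 1.07 (edgeR adjusted p = 0.165).

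The library labelled KO day 1 replicate 1 is given apart from its group. Its summed level of these genes, 3502 CPM, lay within the range of the 4 monocyte libraries, as did the 3315 CPM of KO day 2 replicate 1. Oasl2 stood at 201 CPM in it, against 203 and 146 CPM in KO monocytes, 4.79 and 27.1 CPM in WT day 1 and 4.76 CPM in KO day 1 replicate 2. Slfn5 stood at 349 CPM in it, against 359 and 208 CPM in KO monocytes, 40.4 and 84.1 CPM in WT day 1 and 26.8 CPM in KO day 1 replicate 2. Oas3 stood at 105 CPM in it, 12.4 times the highest of the other day 1 libraries, and Ifit1 at 32.0 CPM, where the other day 1 libraries held at most 4.24 CPM. For each of these genes this library lay with the monocytes and not with its own group. It exceeded the other 3 day 1 libraries for 36 of the 40 genes (28.1% of all genes tested) and lay below them for 1, Usp18 (32.6%). Its level was 2.99 times the highest of the other day 1 libraries in the median of the 38 genes with reads there, and at least 2 times that level for 32 of them.

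Its level was within the range of the 4 monocyte libraries for 14 of the 40 genes, against 45.1% of all genes tested. The other 3 day 1 libraries all lay below the 4 monocyte libraries for 34 genes (19.6% of all genes tested). In 14 of the 40 genes they lay below and this library lay between them and the monocytes (8.4% of all genes tested). Ifi204, at 110.0 CPM, and Cmpk2, at 23.4 CPM, were such genes in between. Bst2 at 147 CPM and Parp14 at 293 CPM exceeded every monocyte library as well.

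**Figure D4:**
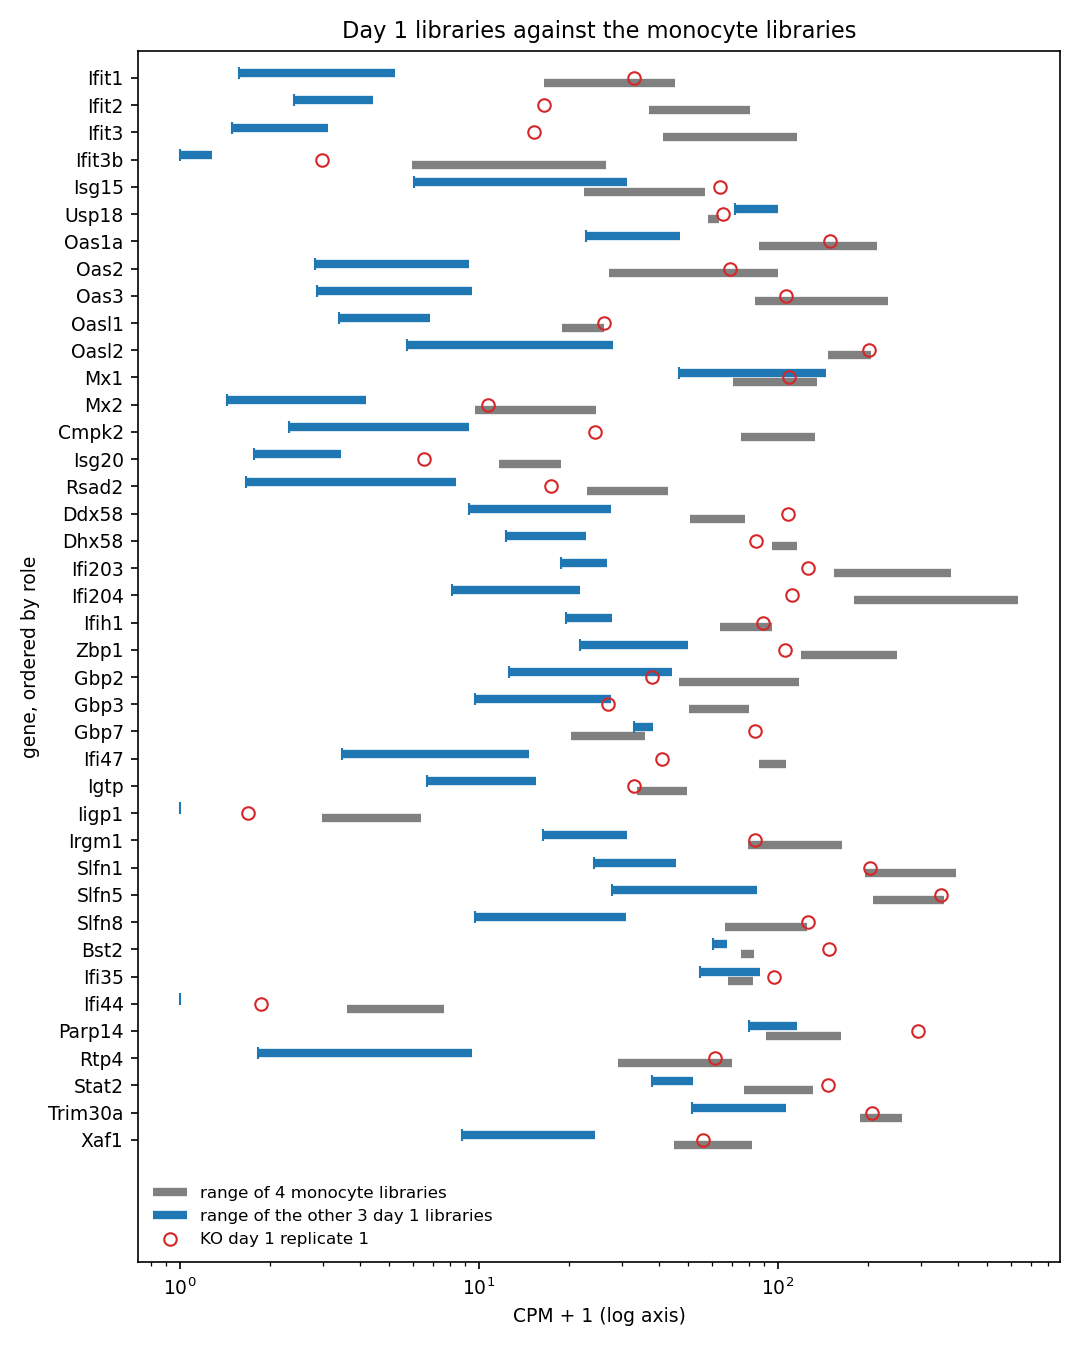
CPM + 1 on a log axis for each of the 40 genes, with KO day 1 replicate 1 as an open red circle, the range of the other 3 day 1 libraries as a blue bar and the range of the 4 monocyte libraries as a grey bar. The circle lies above the blue bar for 36 genes and within the grey bar for 14, and Usp18 is the 1 gene whose circle lies below the blue bar.

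The markers in this library are given beside that result. The 5 monocyte markers summed to 3214 CPM in it and to between 3239 and 3474 CPM in the other day 1 libraries. The 5 dendritic cell markers summed to 8743 CPM, within the 6059.8 to 9210.4 CPM of the others. Over all genes tested it did stand apart from its stage. A principal component analysis of log2 CPM gave a first axis with 52.9% of the variance. On it this library lay at 1.59, the other day 1 libraries at 38.4 to 46.7, and the monocyte libraries at -139.8 to -115.5. It thus lay between them, and the part of this in the result was not tested. The 6 nonclassical monocyte markers summed to 145 CPM against 67.7 to 121 CPM. Plasmacytoid dendritic cells are known for making type I interferon, and their 5 markers summed to 0.346 CPM against 0.661 to 1.80 CPM, with 4 of the 5 at 0 reads. Of 9 interferon genes, Ifnb1, for interferon beta, had 6 reads in it and 0 in the other day 1 libraries, and the other 8 were at 0 reads in it. The highest nonclassical sum of day 1 and the day 1 reads of Ifnb1 were thus in this library, and their part in the result was not tested. Among the other 3 the highest nonclassical sum, 121 CPM, was in WT day 1 replicate 1, whose sum of the 40 genes was the lowest at 754 CPM. Nr4a3 was higher in both WT day 1 libraries (16.5 and 10.4 CPM) than in this one (6.58 CPM), and their sums of the 40 genes were low. Whether nonclassical cells or the Nr4a3 level had a part in the result was not tested.

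In KO cells as a group, 0 of the 40 genes were called at day 1 against KO monocytes, against 7.7% higher and 6.14% lower over all genes tested, and 8 had an unadjusted p under 0.05. DESeq2 called 5 lower. The median log2 difference was -0.91 over the 40 genes and 0.11 over all genes tested. With the replicate block 3 were lower, Gbp3, Ifi44 and Ifit3b, against 10.1% of all genes tested.

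Without KO day 1 replicate 1 the same comparison called 20 of the 40 genes lower, against 5.92% of all genes tested, and the median log2 difference was -2.91, where that of all genes was 0.05. The lone KO day 1 replicate 2 is then assumed to vary like the other groups. Cmpk2 stood at 106 and 97.0 CPM in KO monocytes and 1.31 CPM in that library (log2 difference -6.30, edgeR adjusted p = 0.00452). Oas3 stood at 233 and 149 CPM and then 1.86 CPM (log2 difference -6.72, edgeR adjusted p = 0.00201). These were the lowest adjusted p-values of the comparison, and the levels lay below those of both WT day 1 libraries too. Dhx58 differed by -3.36 (edgeR adjusted p = 0.00568), Slfn1 by -3.05 (edgeR adjusted p = 0.007) and Mx2 by -5.19 (edgeR adjusted p = 0.00812). Each of the 20 genes was among the 29 lower in WT day 1 in the same fit. Without KO day 1 replicate 2 instead, 0 genes were lower and 1 was higher.

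In KO day 2 against KO monocytes 2 of the 40 genes were lower, against 7.57% of all genes tested, and 0 were higher (9.95% of all genes tested). DESeq2 called 9 lower and 1 higher, and 12 had an unadjusted p under 0.05 in edgeR. Slfn1 stood at 231 and 194 CPM in KO monocytes and 33.3 and 33.7 CPM in KO day 2 (log2 difference -2.66 ± 0.75, edgeR adjusted p = 0.0343). Zbp1 stood at 159.6 and 164 CPM and then 34.8 and 21.6 CPM (log2 difference -2.52 ± 0.62, edgeR adjusted p = 0.0182). Both genes had also been lower in WT day 2. Over the 40 genes the median was -1.0 on the log2 scale, and over all genes tested 0.08.

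With the replicate block 3 genes were lower in KO day 2, Ifi203, Ifit3b and Zbp1 (11.5% of all genes tested), while Slfn1 was not called (edgeR adjusted p = 0.0811). In the same fit Parp14 and Stat2 were higher (13.5% of all genes tested). Without KO day 1 replicate 1, which enters this comparison only through the shared estimate of the spread, 12 genes were lower (7.51% of all genes tested) and Stat2 was higher (9.18%). The count was 0 without any 1 of the 4 libraries compared.

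Between KO day 1 and KO day 2, 0 of the 40 genes were called by edgeR, against 2.05% of all genes tested, 4 had an unadjusted p under 0.05, and DESeq2 called 1 higher. Both day 2 libraries lay above both day 1 libraries for 3 genes, Ifi44, Gbp2 and Stat2 (27.2% of all genes tested), and below for 1, Ifi35 (26.3%). With the replicate block Stat2 was higher by 1.77 on the log2 scale (edgeR adjusted p = 0.0319), where 4.05% of all genes tested were higher. The median log2 difference of the 40 genes was -0.24, and 1.95 without KO day 1 replicate 1, when Oas3 and Stat2 were called higher.

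KO and WT cells of the same stage were compared next. In monocytes 0 of the 40 genes were called, 0.0% of all genes tested were, 0 of the 40 had an unadjusted p under 0.05, and DESeq2 called 0. Both KO monocyte libraries lay above both WT libraries for 4 genes, Dhx58, Ifi44, Gbp7 and Oasl1, against 13.3% of all genes tested. They lay below for 8, against 10.9%: Rtp4, Ifit1, Isg20, Xaf1, Ifit2, Iigp1, Ifit3b and Ifit3. Ifit3 stood at 53.6 and 115 CPM in WT and 51.2 and 40.3 CPM in KO monocytes, a log2 difference of -0.88 ± 1.11. Within replicate 1 the median log2 ratio of KO to WT over the 40 genes was 0.07, and within replicate 2 it was -0.48, where the WT library is 1 of those that stood apart.

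At day 1, 0 of the 40 genes and 0.0% of all genes tested differed between KO and WT, 6 of the 40 had an unadjusted p under 0.05, and DESeq2 called 0. With no filter on low counts, edgeR called 17 of the 40 higher in KO and 0 lower, against 0.5% of all genes higher. Among the 17 was Oas3, with a log2 difference of 2.99 ± 0.40 (edgeR adjusted p = 3.18e-10). That standard error was small beside the spread of the Oas3 libraries. For Oas3 the log2 ratio of KO to WT was 4.08 within replicate 1 and -1.73 within replicate 2. The Oas3 call thus rests on KO day 1 replicate 1. Of the 17 genes only Ifit3b was also higher in KO within replicate 2, so the same holds for the others. Over the 40 genes the median log2 difference was 1.26, or 1.20 with genes at 0 reads at their bound, and -0.48 without KO day 1 replicate 1. Within replicate 1 the KO library was above WT for 39 of the 40 genes (46.4% of all genes tested), with a median log2 ratio of 2.29. Within replicate 2 it was above WT for 2 of the 40 (52.1%), with a median log2 ratio of -0.81. The difference thus had opposite directions in the pair of experiments. Both KO libraries exceeded both WT libraries for Gbp7 and Ifit3b (10.3% of all genes tested) and lay below them for Usp18 (9.06%). Gbp7, a guanylate-binding protein gene, stood at 32.1 and 33.9 CPM in WT day 1 and 82.7 and 37.3 CPM in KO day 1 (log2 difference 0.86 ± 0.36, unadjusted p = 0.0384 by edgeR).

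At day 2, 0 of the 40 genes were called between KO and WT, against 0.0998% of all genes tested, 1 had an unadjusted p under 0.05, and DESeq2 called 0. Over the 40 genes the median difference was 0.47 on the log2 scale. Both KO libraries lay above both WT libraries for Gbp7 and Slfn1 (17.6% of all genes tested) and below for Iigp1 (20.6%). Gbp7 stood at 21.9 and 16.7 CPM in WT day 2 and 38.9 and 30.9 CPM in KO day 2, a log2 difference of 0.85 ± 0.37 (unadjusted p = 0.0418 by edgeR). It was the 1 gene of the 40 with both KO libraries above both WT libraries at each of the 3 stages, against 0.285% of all genes tested.

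KO was above WT in both day 2 experiments for 22 of the 40 genes, against 34.6% of all genes tested. It was above WT for 37 genes in replicate 1 (48.9% of all genes tested) and for 23 in replicate 2 (51.7%). The median log2 ratio of KO to WT was 0.68 in replicate 1 and 0.03 in replicate 2. In a fit of only the 4 day 2 libraries with the replicate block, 8 of the 40 genes were higher in KO, against 6.25% of the genes tested in it. They were Gbp3, Gbp7, Ifit1, Oas2, Oasl2, Rtp4, Slfn1 and Slfn8. There Gbp7 differed by 0.86 ± 0.14 (edgeR adjusted p = 0.00611) and Ifit1 by 1.32 ± 0.29 (edgeR adjusted p = 0.0225). With the block in a fit of all 12 libraries, 0 of the 40 were called. Some marker sums were also higher in KO than in WT within both experiments, though edgeR called none of the tested markers between genotypes at day 2. The dendritic cell sums were lower in KO, at 25891 against 26597 CPM in replicate 1 and 26508 against 29827 CPM in replicate 2. The T and NK cell sums, all under 1 CPM, were higher in KO in replicate 1 and lower in replicate 2. The monocyte markers summed to 2357 CPM in KO against 1673 CPM in WT of replicate 1, and to 1446 against 656 CPM in replicate 2. The erythroid sums were 86.2 against 42.9 CPM and 22.1 against 10.7 CPM, and the neutrophil sums 353 against 140 CPM and 774 against 574 CPM. Those of plasmacytoid dendritic cells were 47.2 against 33.1 CPM and 36.0 against 24.9 CPM. Of their 5 markers, 1 to 3 were at 0 reads in each day 2 library. Pacsin1, 1 of the 5, was higher at day 2 than at day 1 by 6.14 on the log2 scale in WT (edgeR adjusted p = 0.00088). In KO it was higher by 9.72 (edgeR adjusted p = 0.00096). This sum thus does not by itself show plasmacytoid dendritic cells. The part of these markers in the result was not tested.

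**Figure D5:**
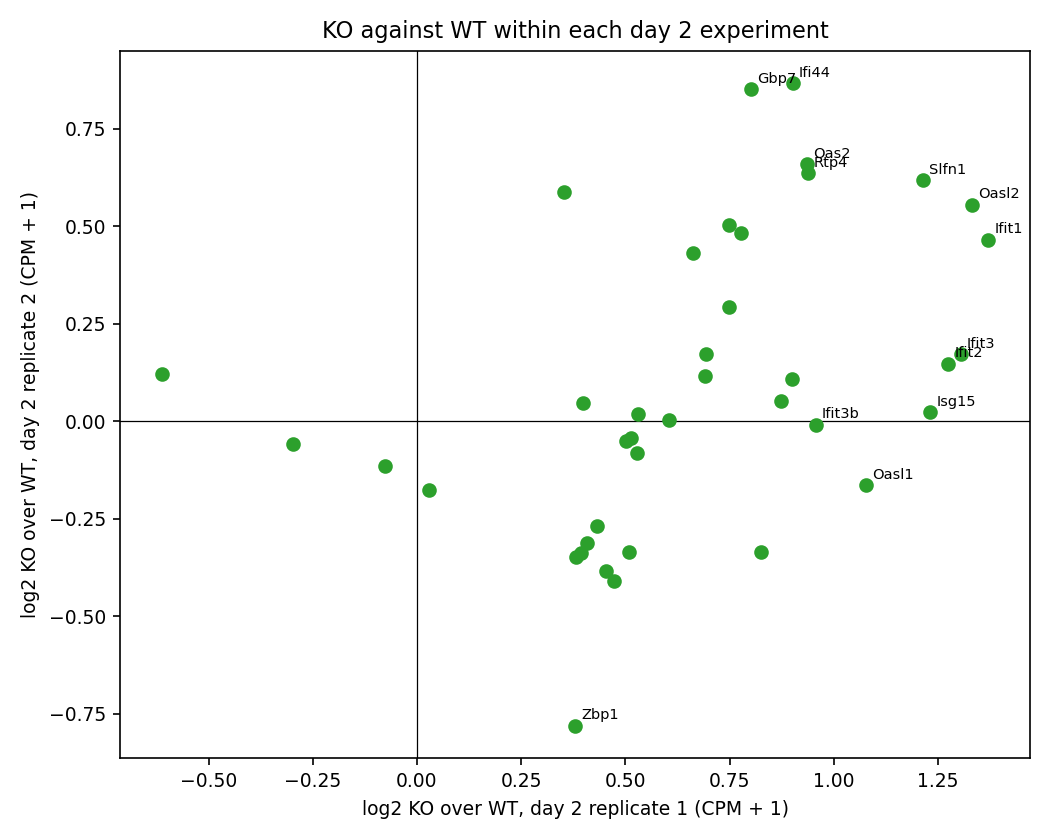
Log2 ratio of KO to WT (CPM + 1) for each of the 40 genes within day 2 replicate 1 (horizontal axis) and within day 2 replicate 2 (vertical axis). In replicate 1, 37 points lie above 0 with a median of 0.68, and in replicate 2, 23 points do with a median of 0.03.

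The change in culture was also compared between genotypes by interaction terms. In KO minus WT, 0 of the 40 genes were called for day 1 against monocytes (0.0% of all genes tested), 0 for day 2 against monocytes (0.0285%) and 0 for day 2 against day 1 (0.0%). The numbers of the 40 with an unadjusted p under 0.05 were 3, 0 and 1, and DESeq2 called 0 in each. The interaction of Oas3 at day 1 was 2.34 ± 1.64 on the log2 scale. The call depended on the filter on low counts. With none, edgeR called 12 of the 40 in the day 1 term, each with a higher value in KO (0.357% of all genes tested), and 1, Oas3, in the term for day 2 against day 1, with a lower value in KO (0.438%). For Oas3 these terms were 2.36 ± 0.53 (edgeR adjusted p = 0.00453) and -2.81 ± 0.54 (edgeR adjusted p = 9.56e-05). Both terms hold the KO day 1 libraries, which differed by 5.22 on the log2 scale for Oas3. The standard errors of 0.53 and 0.54 are small beside that spread. Each of the 12 genes was also among those called higher in KO at day 1 with no filter.

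The larger split at day 2 lay between experiments. Both replicate 1 libraries, WT and KO, exceeded both replicate 2 libraries for 33 of the 40 genes, against 24.2% of all genes tested, and lay below them for 1, Ifi35 (23.1%). The median log2 ratio of replicate 1 to replicate 2 was 0.75 in WT and 1.24 in KO. Rtp4, a receptor transport protein gene, stood at 19.9 CPM in WT and 39.0 CPM in KO of replicate 1, and at 2.28 and 4.09 CPM in replicate 2. Gbp3, a guanylate-binding protein gene, stood at 75.2 and 127 CPM in replicate 1 and at 11.3 and 16.4 CPM in replicate 2. Stat2 did not follow this split, with 215 and 283 CPM in replicate 1 and 324 and 256 CPM in replicate 2. Beside this, Xist stood at 885 and 794 CPM in the replicate 1 libraries of day 2 and at 1.01 CPM or less in the other 10 libraries. The 4 erythroid markers summed to 42.9 and 86.2 CPM in replicate 1 against 10.7 and 22.1 CPM in replicate 2. In both genotypes the monocyte and plasmacytoid dendritic cell sums given above were also higher in replicate 1, and the neutrophil sums were lower. The part of none of these in the split was tested.

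The genes that carry the interferon signal are described next, from lists of genes outside the 40. Of 14 genes for receptor chains, kinases and transcription factors, 2 were higher and 6 lower in WT day 1 than in WT monocytes, against 11.4% and 10.1% of all genes tested. Jak2, a kinase that serves GM-CSF and interferon gamma receptors, stood at 128 and 88.4 CPM in WT monocytes and 963 and 871 CPM in WT day 1 (log2 difference 3.08, edgeR adjusted p = 0.000699). Ifngr1, the ligand-binding chain of the interferon gamma receptor, stood at 395 and 345 CPM and then 74.8 and 68.1 CPM (log2 difference -2.37, edgeR adjusted p = 0.00471). Irf8, a lineage factor of monocytes and dendritic cells, stood at 560.2 and 484 CPM and then 12.3 and 16.2 CPM (log2 difference -5.19, edgeR adjusted p = 0.00751). Jak2 was thus the gene of these that rose while the receptor chain and Irf8 fell, and Jak1 and Tyk2 did not pass, at 280.1 and 282 CPM and 281 and 173 CPM in WT day 1.

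Of 8 negative regulators 3 were higher and 3 lower in WT day 1, against the same shares of all genes. Socs1, an inhibitor of JAK kinases, stood at 1.69 and 3.69 CPM in WT monocytes and 158 and 109 CPM in WT day 1 (log2 difference 5.65, edgeR adjusted p = 0.000233). Of 63 tested genes in a list of 65 other interferon-stimulated genes, 26 were lower in WT day 1 and 0 higher, against 10.1% and 11.4% of all genes tested. The median log2 difference was -1.88, and 0.06 over all genes tested. Ifitm2, a restriction factor of virus entry, stood at 311 and 559.7 CPM and then 31.0 and 31.2 CPM (log2 difference -3.81, edgeR adjusted p = 0.000322). Samhd1, which depletes deoxynucleotides, stood at 1479 and 1392 CPM and then 280.0 and 300.5 CPM (log2 difference -2.31, edgeR adjusted p = 0.00426). Lower levels at day 1 in WT cells were thus also measured in genes outside the 40. Of 6 tested adaptor genes of the sensors, 0 were called in this comparison.

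At day 2 of WT culture 11 of these 63 genes were lower and 2 higher than in monocytes, against 9.89% and 12.7% of all genes tested. Ifitm1 was 1 of the 2, at 2.45 and 0.949 CPM in WT monocytes and 18.5 and 91.3 CPM in WT day 2. Irf8 was higher in WT day 2 than in WT day 1 (log2 difference 3.88, edgeR adjusted p = 0.0407), at 263 and 157 CPM. In KO day 1 replicate 1 the list of 65 summed to 7957 CPM, against 3035 to 3538 CPM in the other day 1 libraries. The 9 interferon genes were too low to test in any comparison, and their sum reached at most 0.520 CPM in any library.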

How the data were processed

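Poly(A) RNA was sequenced in 12 libraries, 2 for each of 6 groups taken from the labels. Each stranded library began with 20 ng of RNA and 16 cycles of PCR, per the labels' protocols. Trimmomatic 0.35, STAR 2.5.1b and the build GRCm38 are named per the submitters' processing notes, while the sources used here give no annotation release. What the authors deposited are raw counts of reads for each gene, without normalization. Column 4, for a reverse-stranded kit, was used, and 47224 of 47643 IDs matched a GENCODE M21 symbol. Rows that name no gene were left out of library sizes and of tests. They held 2.65% to 7.91% of a library's reads (unmapped), 5.29% to 8.94% (multimapping), 5.24% to 11.2% (not in a gene) and 1.34% to 1.76% (ambiguous).

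The test was edgeR's (edgeR 4.0.16, R 4.3.3, data.table version 1.17.8), with TMM, filterByExpr, a robust quasi-likelihood fit and 1 mean per group over all 12 libraries. There were 9 contrasts and 3 interactions, two-sided, with Benjamini-Hochberg adjustment over the 14034 genes tested and a threshold of 0.05. Residual degrees of freedom were 6 and the common coefficient of biological variation was 0.393. The script was tested on simulated data. Ratios within an experiment used a pseudocount of 1 CPM. A lower bound on a fold sets 3 reads over the group at 0.

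The members and lists were chosen with earlier results of these data known. All 40 genes may be named, and from each other list at most 3 called genes with the smallest adjusted p and 2 uncalled ones with the highest level, plus Nr4a3. The labels state independent experiments as replicates. The dates in the deposited names show that KO and WT libraries of 1 stage and number belong to 1 experiment. Their deviations from the group means correlated over genes (0.236 for monocytes, 0.194 for day 1, 0.657 for day 2), so numbers pair the libraries. The names of the day 1 libraries of replicate 2 give 16 hours, and the labels 1 day. Alternatives were RLE and upper-quartile factors, no low-count filter, DESeq2 1.42.0, replicate blocks, fits of the compared groups, unstranded counts and leaving out libraries.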

Additional observations from a re-analysis of the deposited data

How the results depend on the processing

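Among the 40 genes, no call of the reported edgeR fit changed sign under any setting run. Calls made only under other settings could change sign. Oas3 in KO day 1 against WT day 1 was called with no low-count filter at 2.99 on the log2 scale. Without KO day 1 replicate 1 that difference was -1.88. Of the 257 recomputed counts, 200 stayed within 1.5 times the reported one, 153 of them with both counts at 0, and 57 moved further. The counts in this section have no share of all genes tested beside them. The results above give that share for only some of the settings. Calls among all genes can also move with the setting, so a shift in a count is not shown to be particular to the genes described here. For WT day 1 against monocytes, 34 genes were called with no low-count filter, 33 in a fit of only the compared groups with the replicate block, and 2 to 29 when 1 library was left out. For WT day 2 against monocytes, 28 were called with no filter and 1 to 19 with 1 library left out. For WT day 2 against day 1, the count was 2 by DESeq2, 12 with no filter, 3 in a fit of the compared groups, 2 with the replicate block by experiment or by number, 5 without both libraries that stood apart, and 0 to 3 with 1 library left out.

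For KO day 1 against monocytes, it was 5 by DESeq2, 16 with no filter, 1 in a fit of the compared groups, 4 in that fit with the replicate block, 3 with the block by experiment, 1 with the block by number, 19 without both libraries, and 0 to 20 with 1 left out. For KO day 2 against monocytes, it was 10 by DESeq2, 23 with no filter, 12 in a fit of the compared groups, 5 with either replicate block, 15 without both libraries, and 0 to 13 with 1 left out. For KO day 2 against day 1, it was 1 by DESeq2, 8 with no filter, 1 with the block by experiment, 4 without both libraries, and 0 to 2 with 1 left out.

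Between genotypes, 17 genes were called at day 1 with no filter, each higher in KO, and 8 at day 2 in a fit of the compared groups with the replicate block. Of the 17, only Ifit3b was also higher in KO within day 1 replicate 2. With no filter 12 were called in the interaction of day 1 against monocytes, each higher in KO, and 1, lower in KO, in that of day 2 against day 1. The cause of these shifts was not tested. Beyond the changes given in the report, the replicate block by experiment added Gbp3 and Ifih1 to the genes lower in WT day 1 and Iigp1 to those lower in WT day 2, and it changed no other call. Where a library is left out, the lone library of its group is assumed to vary like the others. With 2 libraries per group and counts near 0 for Iigp1, Ifi44 and Ifit3b at day 1, sizes of change are loosely set.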
